A study of Mus musculus with 14 samples.

Results

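Transcript levels of the nucleolar ribosome biogenesis genes were followed in leukemic stem cells (LSCs) of the mouse, a population able to keep a leukemia going. The set holds 40 named genes of RNA polymerase I, of the small nucleolar ribonucleoproteins (snoRNPs), of the abundant proteins of the nucleolus and of pre-ribosome assembly. Of these, 39 were found by symbol among the 24463 genes of each library, and Noc2l was not analysed here. The 39 members were 4 genes of RNA polymerase I transcription, 4 of the box C/D snoRNPs, 4 of the H/ACA snoRNPs, 5 abundant nucleolar proteins, 10 factors of small subunit assembly and 12 of large subunit assembly.

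The LSCs were made from lineage-negative bone marrow by retroviral transfer of p210 BCR-ABL, the fusion kinase of chronic myeloid leukemia. They were sorted as Lin- c-Kit+ Sca1+ GFP+ cells 48 h after the marrow was taken, so all 5 groups carry BCR-ABL and came through the same gate. Untreated LSCs were from wild-type marrow (WT, 3 libraries) or from marrow deficient for Tcf1 and Lef1 (dKO, 3 libraries), the DNA-binding partners of beta-catenin encoded by Tcf7 and Lef1. Control LSCs were held for 6 h with vehicle (DMSO, 3 libraries), with 20 µM prostaglandin E1 (PGE1, 3 libraries) or with 20 µM prostaglandin E2 (PGE2, 2 libraries). The sources used here give neither the strain and age of the mice nor the Cre behind the deletion, and whether replicates are separate animals or separate cultures is not labelled. The p-values therefore measure only the spread between these libraries, which may be technical.

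Ribosomes are built in the nucleolus, where RNA polymerase I transcribes the ribosomal DNA into a long precursor RNA. The snoRNPs guide methylation and pseudouridylation of that precursor, and large sets of helicases, GTPases and scaffold proteins fold, cut and package it into the small and large subunits. Many of these genes are known targets of the transcription factor Myc, which binds the E-box CACGTG, and ribosome production is known to follow the growth of blood progenitors and leukemia cells.

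Promoter sequence was at hand for 34 of the 39 members, from RefSeq on GRCm38.p6, as the 250 bases before and 50 bases after each start. The palindrome CACGTG, which reads the same on both strands, lay in this window in 8 of the 34 members (23.5%), in 12.1% of 8623 tested genes and in 8.09% of all 27025 genes with an entry. In 7 of the 8 it lay just after the start. When only the 250 bases before the start were searched, it was in 1 member (2.94%) and in 10.2% of the tested genes. The 30 bases around each match are shown, with the E-box in capitals, to let the positions be seen.
Nop2, GRCm38.p6 chr6:125131811-125131840, plus strand, E-box from 60 bases before the start: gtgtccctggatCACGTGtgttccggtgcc
Pes1, GRCm38.p6 chr11:3963965-3963994, plus strand, E-box 2 bases after the start: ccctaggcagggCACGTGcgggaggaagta
Wdr43, GRCm38.p6 chr17:71616220-71616249, plus strand, 17 bases after: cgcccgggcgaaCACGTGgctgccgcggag
Tsr1, GRCm38.p6 chr11:74898092-74898121, plus strand, 24 bases after: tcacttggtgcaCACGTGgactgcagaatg
Ltv1, GRCm38.p6 chr10:13193092-13193121, minus strand, 28 bases after: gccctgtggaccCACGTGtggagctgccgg
Pno1, GRCm38.p6 chr11:17211540-17211569, minus strand, 37 bases after: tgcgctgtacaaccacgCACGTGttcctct
Utp20, GRCm38.p6 chr10:88826765-88826794, minus strand, 37 bases after: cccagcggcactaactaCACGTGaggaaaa
Mybbp1a, GRCm38.p6 chr11:72441347-72441376, plus strand, 40 bases after: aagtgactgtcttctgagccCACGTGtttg

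A pair of members stood at opposite ends of the response to PGE1, Nolc1 with the deepest fall and Polr1c as the single rise, and the 250 bases before their starts are printed for comparison. CACGTG is in neither. The Nolc1 stretch has 14 CpG dinucleotides and 56.4% G and C, and the Polr1c stretch has 32 CpG dinucleotides and 70.4% G and C.
Nolc1, GRCm38.p6 chr19:46075597-46075846, plus strand: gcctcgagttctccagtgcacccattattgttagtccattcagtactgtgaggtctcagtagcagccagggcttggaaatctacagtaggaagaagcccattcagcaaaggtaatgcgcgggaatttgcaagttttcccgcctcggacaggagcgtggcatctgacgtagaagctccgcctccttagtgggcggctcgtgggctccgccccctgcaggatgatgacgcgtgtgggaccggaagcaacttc
Polr1c, GRCm38.p6 chr17:46248046-46248295, minus strand: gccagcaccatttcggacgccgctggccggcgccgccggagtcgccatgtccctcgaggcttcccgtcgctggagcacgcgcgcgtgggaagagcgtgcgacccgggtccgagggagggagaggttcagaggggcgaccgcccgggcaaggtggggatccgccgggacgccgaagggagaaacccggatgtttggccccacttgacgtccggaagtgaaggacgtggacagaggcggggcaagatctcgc

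Levels are FPKM, fragment counts scaled for gene model length and for sequencing depth, and differences are on the log2(FPKM + 1) scale. Library totals were 31.3 to 33.8 M reads in untreated cells and 19.0 to 22.7 M in treated cells. Every member passed the minimum mean of 1 FPKM in every fit, and 38 of 39 had at least 200 reads in each library, the fewest being 169 for Fbl in PGE1 replicate 2. Some libraries stood apart. The genotype field of dKO replicate 1 reads wild type and that of DMSO replicate 1 reads deficient, against their titles, yet Tcf7 was 0.142 FPKM in dKO replicate 1, 0.0219 and 0.135 in the other dKO libraries and 1.15 to 1.48 in WT. Tcf7 in DMSO replicate 1 was 1.03 FPKM. Over the group, Tcf7 had 26 reads in dKO and 345 in WT, and Lef1, low in both, had 54 and 101 (exact permutation test, two-sided, p = 0.1 for each, the smallest that 3 against 3 allows). The gate's own genes were present in all libraries, although Ly6a, which encodes Sca1, was 2.86 to 3.53 FPKM in dKO and 10.4 to 12.6 in WT. The Y-linked Ddx3y was at 0 in the 3 dKO libraries and between 7.72 and 8.94 FPKM in WT, so deletion and the sex of the donor mice cannot be told apart. The X-linked Xist was 12.4 to 27.6 FPKM in dKO and 9.81 to 10.6 in WT, so the WT libraries held both transcripts. Of the replicate pairs, those with PGE1 replicate 2 differed most, with a variance 45.8 to 48.1 times that of read counting, against 2.13 to 3.02 times in WT. DMSO replicate 1 also stood apart, at 15.1 and 17.5 times against its partners, which differed from each other by 1.86 times. Likewise dKO replicate 1 was at 16.0 and 14.9 times against the other dKO libraries, which differed by 5.33 times. DMSO replicate 1 was the highest of its group in 26 members.

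Means over the 14 libraries ran from 6.81 FPKM for Noc3l to 174.5 FPKM for Npm1. Summed over the 39 members, the level was 1977 to 2016 FPKM in WT, 2174 to 2481 in dKO, 1389 to 1525 in DMSO, 665 to 793 in PGE1 and 1650 to 1660 in PGE2. No group overlapped another in this sum. As a share of each library's summed FPKM, the members held 0.760% to 0.772% in WT, 0.807% to 0.923% in dKO, 0.562% to 0.580% in DMSO, 0.274% to 0.328% in PGE1 and 0.650% to 0.653% in PGE2. The group means of 38 members fell in the order WT, PGE2, DMSO, PGE1 from high to low, and dKO had the highest mean of all 5 groups in 38. These orders were not counted over all genes, and they run across untreated and treated libraries of different depth. The spread between replicates differed by group, with a median coefficient of variation over members of 2.89% in WT, 8.56% in dKO, 5.21% in DMSO, 14.2% in PGE1 and 2.84% in PGE2.

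**Figure D1:**
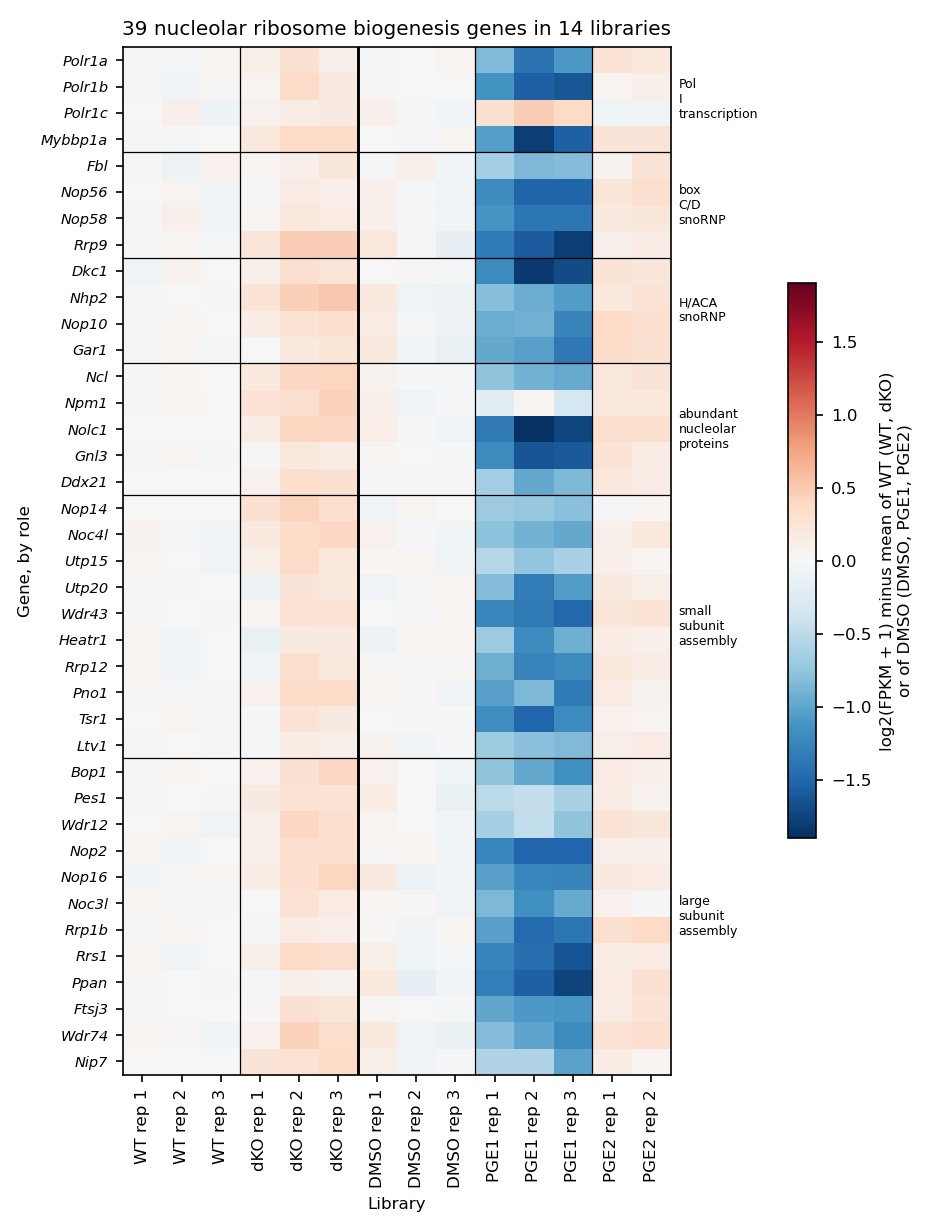
Heat map of 39 members (rows, by role) in 14 libraries (columns), coloured by log2(FPKM + 1) minus the mean of WT for untreated cells and of DMSO for treated cells. The 3 PGE1 columns are blue in all rows but Polr1c and, in part, Npm1, and dKO replicate 1 is paler than the other dKO libraries.

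The comparison of PGE1 with DMSO asked what 6 h of the prostaglandin does to transcripts of control LSCs. After PGE1, 37 of the 39 members fell, Polr1c rose, and Npm1 did not pass the test (limma, adjusted p under 0.05). Over all 11242 genes tested, 25.5% fell and 23.6% rose. The median log2 difference of the members was -1.07, against 0.0056 over all genes, and the median member was left at 44.7% of its DMSO level. After PGE1, 24 members stood at 50% of DMSO or less, and the lowest, Nolc1, at 30.4%. The PGE1 and DMSO libraries did not overlap for the 37 members that fell, against 29.2% of all genes lower without overlap. For the same number of members every PGE1 library lay below all 11 other libraries, an order that was not counted over all genes. PGE1 replicate 1 was the highest of its group in 32 members. In bulk RNA, fewer cells of a type and less RNA per cell cannot be told apart.

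RNA polymerase I itself was split. Polr1b, a catalytic subunit of the enzyme, was at 13.3, 13.1 and 13.0 FPKM in DMSO and at 5.41, 3.81 and 3.57 in PGE1, and fell by 1.44 on the log2 scale (SE 0.12, limma adjusted p = 2.69e-05). Polr1a, the largest subunit, was at 13.4, 13.6 and 14.3 FPKM in DMSO and at 7.22, 4.58 and 5.97 in PGE1. Mybbp1a, a Myb-binding protein of the nucleolus, was at 72.3, 70.1 and 73.8 FPKM in DMSO and at 34.2, 20.1 and 24.0 in PGE1. All 3 genes were low in each PGE1 library. Polr1c, a subunit that polymerases I and III share, was at 30.1, 27.4 and 27.0 FPKM in DMSO and at 34.8, 39.4 and 37.0 in PGE1. It rose 1.32-fold (log2 difference 0.38, SE 0.07, limma adjusted p = 0.0017), with every PGE1 library above every DMSO library. Its PGE2 libraries, at 26.4 and 27.2 FPKM, lay at the DMSO level.

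The snoRNP proteins fell in full. Of the box C/D set, Nop56 and Nop58 form the core scaffold, fibrillarin (Fbl) is the RNA methyltransferase, and Rrp9 binds the U3 snoRNA that is needed to cut the precursor. Nop58 was at 73.3, 66.5 and 65.7 FPKM in DMSO and at 31.1, 25.7 and 25.9 in PGE1 (log2 difference -1.29, SE 0.08, limma adjusted p = 9.15e-06). Nop56 was at 54.0, 49.9 and 48.5 FPKM in DMSO and at 21.6, 17.1 and 17.0 in PGE1 (log2 difference -1.41, SE 0.09, limma adjusted p = 1.01e-05). The PGE1 libraries of both genes were below 50% of the lowest DMSO library. Rrp9 went from a mean of 32.4 FPKM to 10.3 (3.15-fold lower) and Fbl was 1.79-fold lower. The H/ACA proteins make up the pseudouridine synthase complex, with dyskerin (Dkc1) as the enzyme and Nhp2, Nop10 and Gar1 as its partners. Dkc1 was at 28.4, 29.2 and 28.3 FPKM in DMSO and at 11.8, 7.37 and 8.08 in PGE1, 3.15-fold lower. Nhp2, Nop10 and Gar1 were 1.94-fold, 2.08-fold and 2.24-fold lower.

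Among the abundant nucleolar proteins, Nolc1, a chaperone of the snoRNPs, showed the deepest fall of all members. It was at 44.4, 39.5 and 38.1 FPKM in DMSO and at 15.4, 10.3 and 11.4 in PGE1, a log2 difference of -1.66 (SE 0.13, limma adjusted p = 2.07e-05). Nucleostemin (Gnl3), a GTPase of stem and tumour cells, was 2.90-fold lower. Nucleolin (Ncl), which binds the precursor RNA, was at 106, 100.3 and 98.6 FPKM in DMSO and at 59.6, 54.0 and 52.0 in PGE1. The helicase Ddx21 was 1.79-fold lower. Nucleophosmin (Npm1), the most abundant member in treated cells, was at 146, 131 and 134 FPKM in DMSO and at 119, 142 and 108 in PGE1, so that the groups overlapped through PGE1 replicate 2. Its log2 difference was -0.17 (SE 0.10, 95% interval -0.39 to 0.06, limma adjusted p = 0.195), and without PGE1 replicate 2 it was -0.27 (adjusted p = 0.0111). Npm1 has many processed pseudogenes, and the sources do not state how reads shared with them were counted, so its level is uncertain.

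**Figure D2:**
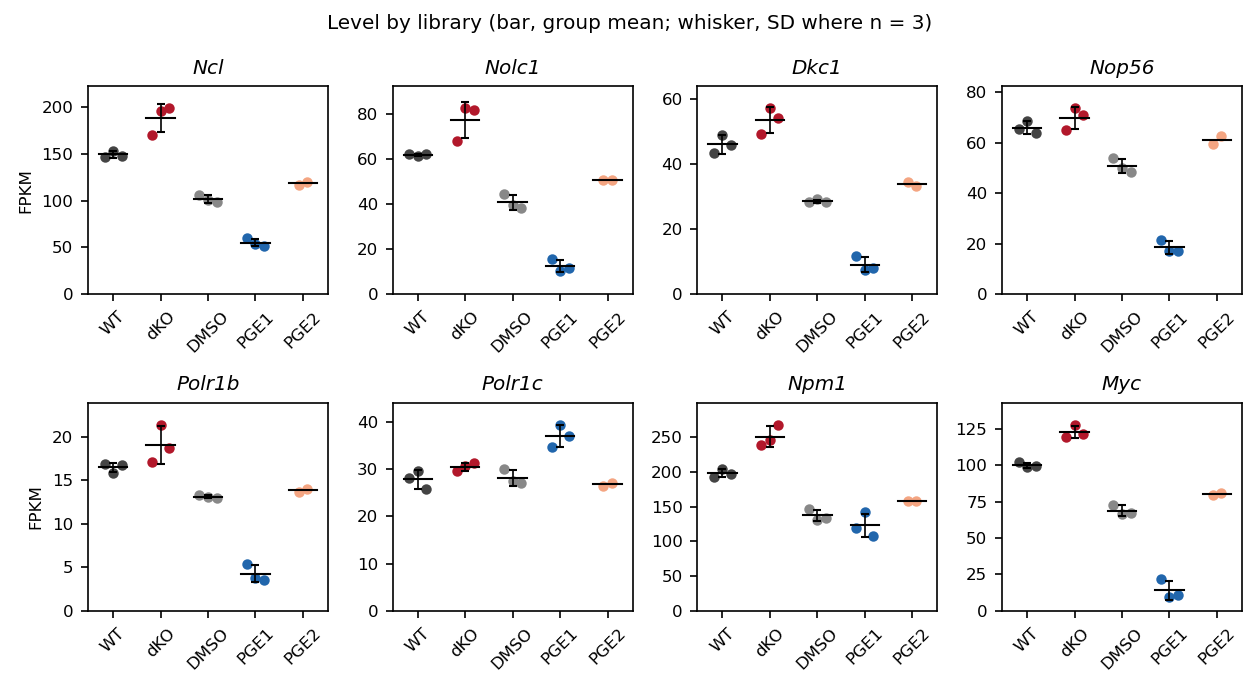
FPKM of 7 members and of Myc in each library (points), with group means (bars) and SD (whiskers, groups of 3). PGE1 libraries lie under all others for Ncl, Nolc1, Dkc1, Nop56, Polr1b and Myc, above DMSO for Polr1c, and overlap DMSO for Npm1.

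All 10 small subunit factors and all 12 large subunit factors fell, by log2 differences from -0.63 to -1.35 and from -0.53 to -1.54. Wdr43, a component of the small subunit processome, had the smallest p of all members. It was at 26.3, 26.2 and 27.2 FPKM in DMSO and at 10.7, 9.88 and 8.84 in PGE1 (log2 difference -1.35, SE 0.07, limma adjusted p = 3.02e-06). The other processome proteins were Nop14, Noc4l, Utp15, Utp20 and Heatr1, which were 1.72-fold, 1.91-fold, 1.62-fold, 2.35-fold and 1.98-fold lower. Rrp12, which serves export of the small subunit precursor, was 2.39-fold lower, and the late factors Pno1, Tsr1 and Ltv1 were 2.17-fold, 2.62-fold and 1.76-fold lower. The small subunit members thus ranged from 1.62-fold (Utp15) to 2.71-fold (Wdr43) lower.

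On the large subunit side, Nop2, which methylates a cytosine of the large ribosomal RNA, was at 39.1, 39.4 and 37.2 FPKM in DMSO and at 15.7, 12.9 and 12.8 in PGE1 (log2 difference -1.42, SE 0.08, limma adjusted p = 4.62e-06). Ftsj3, an RNA methyltransferase of the pre-ribosome, was at 36.5, 36.1 and 35.4 FPKM in DMSO and at 17.7, 16.3 and 16.1 in PGE1 (log2 difference -1.06, SE 0.06, limma adjusted p = 4.74e-06). Rrs1, which helps to load the small ribosomal RNA of the large subunit, was at 41.8, 36.8 and 37.9 FPKM in DMSO and at 15.8, 13.7 and 11.8 in PGE1 (log2 difference -1.44, SE 0.10, limma adjusted p = 1.11e-05). All 3 genes were separated from DMSO by far more than the spread in either group, which follows from their choice by smallest p. Ppan was 3.03-fold lower, Rrp1b 2.69-fold, Nop16 2.37-fold, Noc3l 2.31-fold, Wdr74 2.07-fold and Nip7 1.73-fold. Bop1, Pes1 and Wdr12 form the PeBoW complex, which is needed to mature the large subunit RNA, and were 1.99-fold, 1.48-fold and 1.64-fold lower. Pes1 showed the smallest fall among the 37 members, from 24.6, 22.3 and 20.1 FPKM in DMSO to 15.2, 16.0 and 14.1 in PGE1.

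**Figure D3:**
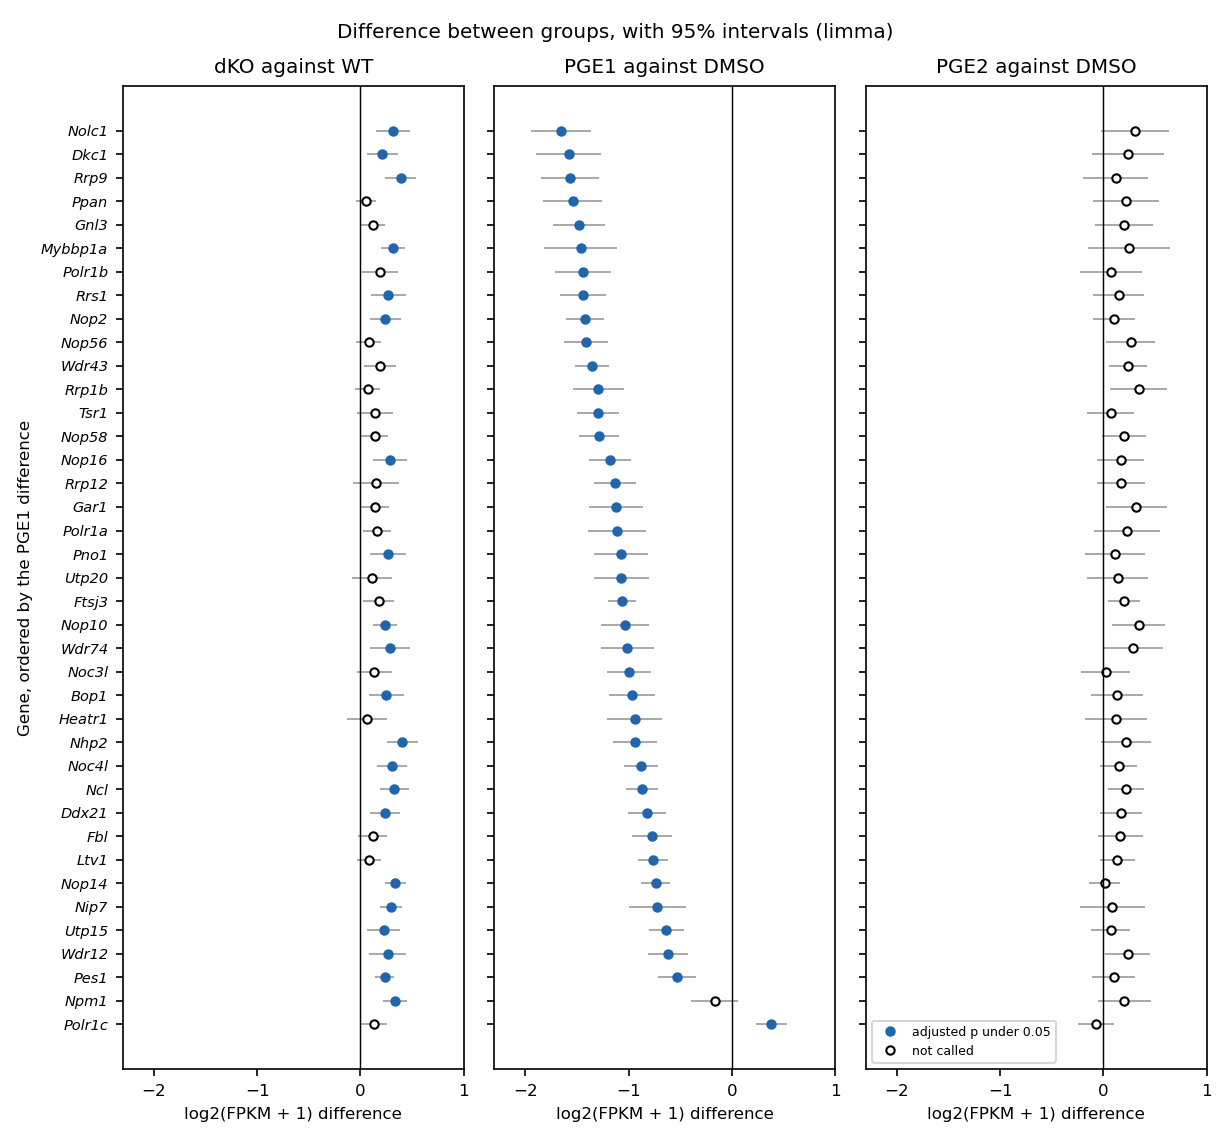
Log2(FPKM + 1) difference of each member (rows) with its 95% interval in 3 comparisons, filled where the limma adjusted p was under 0.05. Differences for PGE1 run from -1.66 (Nolc1) to 0.38 (Polr1c), those for dKO from 0.05 to 0.41, and no PGE2 point is filled.

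Markers of other cells moved with the PGE1 group. The neutrophil list, which holds granule genes of promyelocytes such as Mpo and Elane, summed to 5348 to 6361 FPKM in DMSO and 1935 to 2968 in PGE1, with 9 of its 11 tested genes lower. The monocyte list summed to 843 to 985 FPKM in DMSO and 872 to 1096 in PGE1, yet 6 of its 10 genes, among them Cd68 and Adgre1, were lower and 3 (Cd14, Csf1r and Itgam) higher, with a median log2 difference of -0.71. The erythroid list summed to 85.0 to 86.4 FPKM in DMSO and 32.0 to 46.2 in PGE1. Of its 5 genes, both globin genes and Tfrc were lower, and Epor and Klf1, which encode the erythropoietin receptor and an erythroid transcription factor, were higher. The mast cell list summed to 217 to 239 and 291 to 368 FPKM, with 4 of 7 genes higher and 1 lower. Of the 5 genes of the gate and of progenitors, 2 were higher and 1, Cd34, lower. Kit, the gate's receptor, was at 35.4 to 48.5 FPKM in PGE1 and at 23.2 to 27.6 in DMSO (limma adjusted p = 0.00142). Xist was 3.54 to 8.14 FPKM in PGE1 and 9.05 to 11.2 in DMSO. Means of the Y-linked Ddx3y, Eif2s3y, Uty and Kdm5d were 9.06, 22.2, 3.28 and 3.18 FPKM in PGE1. In DMSO they were 7.35, 16.5, 2.12 and 2.12 FPKM. Whether the mix of male and female cells differed was not tested. None of the marker genes was at 0 in all libraries, and the part of other cells in the falls of the members was not tested.

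Neighbouring genes overlap some members, and the sources do not state whether counting used strand. Reads of such neighbours may therefore have been counted to the members. In GENCODE annotation on GRCm38, exons of 11 members overlap another gene, among them Nop56 with Idh3b, Dkc1 with Mpp1, Gnl3 with Pbrm1 and Tsr1 with Srr. Of the 28 members with no such overlap, 26 fell after PGE1 and 1, Polr1c, rose.

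PGE1 and PGE2 differ by a carbon-carbon double bond that PGE2 carries in its carboxyl side chain and PGE1 lacks. They were used at the same dose and time, which allows a direct test of this single pair in the same fit. Against PGE2, 38 members were lower in PGE1 and Polr1c was higher (limma, adjusted p under 0.05), beside 26.7% of all genes lower and 27.2% higher. The median log2 difference of the members was -1.30. All 38 were lower without overlap, against 33.7% of all genes. Nolc1 was at 50.5 and 50.4 FPKM in PGE2 and at 12.4 ± 2.70 (SD, n = 3) in PGE1, 4.08-fold lower (log2 difference -1.96, SE 0.14, limma adjusted p = 2.08e-05). The smallest p belonged to Wdr43, which was at 31.3 and 31.9 FPKM in PGE2 and 3.22-fold lower in PGE1 (log2 difference -1.60, SE 0.08, limma adjusted p = 5.95e-06). Nop2 was at 41.5 and 41.3 FPKM in PGE2 (log2 difference -1.52, SE 0.09, limma adjusted p = 8.13e-06). Ftsj3 was 2.48-fold lower in PGE1 (log2 difference -1.26, SE 0.07, limma adjusted p = 6.12e-06). The snoRNP scaffold proteins were also far apart, Nop56 by 3.29-fold (log2 difference -1.67, SE 0.11) and Nop58 by 2.85-fold (-1.48, SE 0.09), each with a limma adjusted p of 1.09e-05. Rrs1 was 3.13-fold lower (log2 difference -1.59, SE 0.11, limma adjusted p = 1.73e-05). Polr1c was 1.38-fold higher in PGE1 (log2 difference 0.45, SE 0.08, limma adjusted p = 0.00112). Npm1, at 158 FPKM in both PGE2 libraries, was lower in PGE1 by 0.37 on the log2 scale (SE 0.11, limma adjusted p = 0.0209). That last call was lost when either PGE2 library was left out (adjusted p 0.1 and 0.0958), and without PGE1 replicate 1 (0.0507) or replicate 3 (0.0521).

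After PGE2, no member passed the test against DMSO (limma, 0 higher and 0 lower). An unadjusted p under 0.05 was found for 9 of the 39 members, beside 20.8% of all genes. Over all genes 0.996% were called higher and 4.57% lower. The PGE2 mean was nevertheless above DMSO for 38 of 39 members, with a median of 112.9% of DMSO and a range from 95.1% to 128.5%. Both PGE2 libraries lay above all 3 DMSO libraries for 29 of the 39 members, against 25.0% of all genes. The smallest adjusted p was that of Wdr43, at 31.3 and 31.9 FPKM against 26.3, 26.2 and 27.2 in DMSO (log2 difference 0.24, SE 0.08, limma adjusted p = 0.129). Nop10, at 99.3 and 94.1 FPKM against 84.2, 74.0 and 70.8, had a log2 difference of 0.34 (SE 0.11, limma adjusted p = 0.13). Both genes were above DMSO without overlap, and neither passed the test. Over the members, the 95% intervals of the PGE2 difference ran from -0.24 at the lowest bound to 0.64 at the highest, so none holds a fall as deep as the median PGE1 fall. The comparison shares its DMSO libraries with that of PGE1. The summed neutrophil list was 7822 to 7924 FPKM in PGE2 and 5348 to 6361 in DMSO, yet only 1 of its 11 tested genes, Ngp, was called higher. Of 10 monocyte genes 3 were called higher and 0 lower. None of 16 proliferation genes was called, although all 16 had a positive log2 difference. The part of these in the members' levels was not tested.

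The comparison of dKO with WT asked how loss of Tcf1 and Lef1 alters the LSC transcriptome. In dKO cells 21 members were higher and 0 lower (limma, adjusted p under 0.05), beside 18.0% of all 10721 genes higher and 22.9% lower. The mean of all 39 members was above WT, by 1.04-fold to 1.33-fold with a median of 1.18-fold, and the median log2 difference was 0.22 against -0.0090 over all genes. In 25 of the 39 members the 3 dKO libraries lay above all WT libraries, against 25.3% of all genes. The count depends on single libraries. dKO replicate 1 was the lowest dKO library in 38 members, and without it 36 members were higher, beside 22.8% of all genes. The count was 12 without dKO replicate 2 (14.4% of all genes higher) and 12 without dKO replicate 3 (13.2%). It was 12 without WT replicate 3 (11.3%) and 13 without WT replicate 1 (11.3%), so the share of all genes moved as well. Quantile normalization left 18 members higher and raised the share of all genes called higher to 26.0%, with 17.2% lower.

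By role, the calls covered 1 of 4 genes in RNA polymerase I and in the box C/D snoRNPs, 3 of 4 H/ACA proteins, 4 of 5 abundant proteins, 4 of 10 small subunit and 8 of 12 large subunit factors. These differences between roles were not tested. Nop14, of the small subunit processome, was at 23.2, 23.5 and 23.4 FPKM in WT and at 28.8, 31.5 and 29.3 in dKO (log2 difference 0.34, SE 0.04, limma adjusted p = 8.22e-04). Npm1 was at 193, 204 and 197 FPKM in WT and at 239, 246 and 268 in dKO (log2 difference 0.34, SE 0.05, limma adjusted p = 0.00162). Nip7, a late large subunit factor, was at 15.5, 15.4 and 15.4 FPKM in WT and at 18.5, 18.9 and 20.3 in dKO (log2 difference 0.30, SE 0.05, limma adjusted p = 0.00179). None of these genes overlapped between the groups. Nhp2 was at 150, 152 and 154 FPKM in WT and at 182, 208 and 217 in dKO, the largest fold of all members (1.33-fold, log2 difference 0.41, SE 0.06, limma adjusted p = 0.00212). Mybbp1a was 1.25-fold higher (log2 difference 0.31, SE 0.05, limma adjusted p = 0.00235) and Rrp9 1.32-fold higher (log2 difference 0.39, SE 0.07, limma adjusted p = 0.00282). Ncl was at 147, 154 and 148 FPKM in WT and at 171, 196 and 199 in dKO, 1.26-fold higher (limma adjusted p = 0.0042). The genes not called included Polr1a, Polr1b, Polr1c, Nop56, Nop58, Fbl, Gnl3 and Heatr1, at 1.05-fold to 1.16-fold. Nop56 and Ppan had positive differences in most settings, but under quantile normalization theirs were -0.011 (adjusted p = 0.862) and -0.023 (adjusted p = 0.651).

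Markers of other cells moved with the dKO group as well. The neutrophil list summed to 11070 to 11330 FPKM in dKO, against 8197 to 8556 in WT. Of its 11 tested genes 5 (Ctsg, Elane, Mpo, Prtn3 and S100a8) were higher and 5 (Camp, Lcn2, Ltf, Mmp8 and Ngp) lower. Its median log2 difference was -0.024, and the lowest was -2.56. The monocyte list summed to 135 to 153 FPKM against 818 to 858, with all 10 genes lower. The 5 genes of the gate and of progenitors (Kit, Ly6a, Cd34, Flt3 and Ptprc) were all lower, at a sum of 81.9 to 86.9 FPKM against 136 to 139.9 in WT. Of the megakaryocyte list 9 of 9 genes were lower, and of the mast cell list 6 of 7. Of the dendritic cell list 4 of 5 tested genes were lower and 0 higher. Of the B lymphoid list 3 of 5 tested genes (Igll1, Vpreb1 and Vpreb3) were higher and 0 lower. The proliferation list, cell cycle genes such as Rrm2 and the Mcm helicase genes, had 11 of 16 higher and 0 lower. The part of any of these in the members' rise was not tested.

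DMSO libraries were also compared with untreated WT libraries, both from control marrow. In DMSO 38 members were lower and 0 higher (limma, adjusted p under 0.05), beside 30.7% of all genes lower and 26.0% higher, and Polr1c was not called. DMSO stood at 57.7% to 101.3% of WT with a median of 76.2%, a median log2 difference of -0.38. The smallest p was that of Wdr43 (log2 difference -0.55, SE 0.04, limma adjusted p = 1.55e-05), followed by Dkc1 (-0.67, SE 0.05, adjusted p = 2.72e-05). Gnl3 and Mybbp1a had log2 differences of -0.53 and -0.51 (SE 0.04 and limma adjusted p = 3.03e-05 for both). Ncl was lower by a log2 difference of -0.55 (SE 0.05, limma adjusted p = 3.84e-05) and Nop10 by one of -0.79 (SE 0.07, limma adjusted p = 4.05e-05). Polr1c was at 28.0, 29.6 and 25.8 FPKM in WT. In the same libraries all 16 proliferation genes were lower in DMSO, with a median log2 difference of -0.49. Of the neutrophil list 7 of 11 tested genes were lower and 3 higher, with sums of 5348 to 6361 FPKM in DMSO and 8197 to 8556 in WT. Of the gate and progenitor genes Cd34 and Flt3 were lower and Ly6a and Ptprc higher. The part of these in the members' difference was not tested. The 6 h in vehicle, the handling of the treated cells and the lower depth of their libraries cannot be told apart.

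The rest of the ribosome assembly pathway was followed in lists of genes outside the members. After PGE1, 29 of 35 other small subunit factors fell and 1 rose, 30 of 38 other large subunit factors fell and 1 rose, and 10 of 12 RNA exosome subunits, the nuclease that trims the precursor, fell. Their median log2 differences were -0.60, -0.50 and -0.52. Wdr3 of the small subunit processome fell from 21.9 to 11.8 FPKM, the RNA acetyltransferase Nat10 from 16.8 to 7.57, and Tbl3 fell 1.91-fold. Nle1, Ddx56 and Surf6 of the large subunit list went from 14.5 to 5.76, from 17.7 to 9.68 and from 14.1 to 8.18 FPKM. The exosome genes with the smallest p were Exosc1, Dis3 and Exosc2, each 1.85-fold to 1.93-fold lower. Of 12 other polymerase I and ribosomal DNA factors, 6 fell and 3 rose. Cd3eap fell 2.70-fold, Rrn3, the factor that brings the polymerase to its promoter, 1.60-fold and Polr1e 1.99-fold, and Taf1d, Ttf1 and Znrd1 were those that rose.

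The proteins of the ribosome itself were counted apart. After PGE1, 3 of 26 large subunit ribosomal protein genes were lower and 0 higher, and 2 of 25 small subunit genes were lower and 1 higher, with median log2 differences of 0.13 and 0.11. By mean FPKM, Rpl10a was 1.88-fold lower, Rpl11 2.21-fold and Rpl35 1.43-fold. On the log2(FPKM + 1) scale that was tested, 0 genes of this list were at least 2-fold lower. Of these 3 genes only Rpl10a was also called lower in PGE1 against PGE2. Rps27l and Rps23 were lower and Rps20 was higher (1.27-fold). Many of these genes have near-identical processed copies, so their levels are uncertain. In dKO, 8 of 26 large subunit protein genes were higher and 1, Rpl10a, lower. Of the small subunit protein genes 6 of 25 were higher and 0 lower, beside 18.0% of all genes higher and 22.9% lower. In dKO the other assembly lists had 18 of 35, 24 of 38, 10 of 12 and, for polymerase I, 5 of 12 genes higher and none lower, with Imp3, Ebna1bp2, Exosc7 and Rrn3 at 1.27-fold, 1.27-fold, 1.19-fold and 1.28-fold. Against DMSO, PGE2 gave 0 calls in each of these lists.

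**Figure D4:**
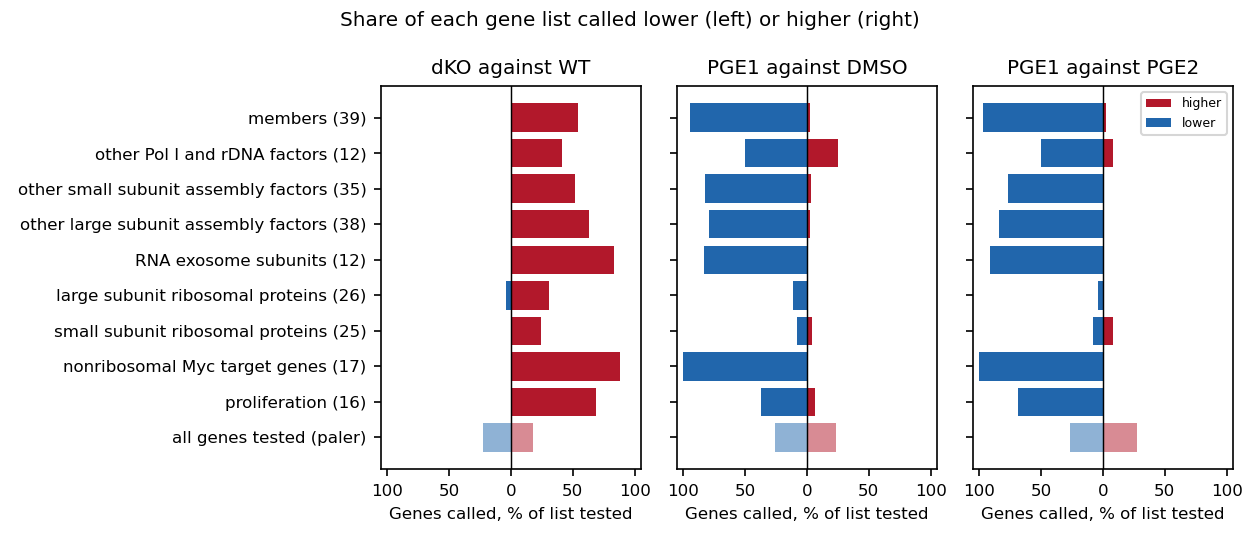
Share of tested genes called lower (left, blue) or higher (right, red) by limma in each list, number tested in brackets, for 3 comparisons, with all genes tested in paler bars. Assembly lists lean to the left for PGE1 and to the right for dKO, while the ribosomal protein bars for PGE1 are short.

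Myc followed the order of the members. The granule genes Mpo and Elane did too, so this order was not seen in Myc alone. They do not stand for their list, since 5 other neutrophil genes (Camp, Lcn2, Ltf, Mmp8 and Ngp) were called lower in dKO. Mean Mpo was 3150 FPKM in dKO, 2499 in WT, 1946 in PGE2, 1331 in DMSO and 296 in PGE1. Mean Elane was 2806, 2030, 1832, 1275 and 448 FPKM in the same order. The part of Myc in the members' differences was not tested. Myc was at 102, 98.9 and 99.3 FPKM in WT, 119, 128 and 121 in dKO, 73.0, 66.3 and 67.1 in DMSO, 21.6, 9.40 and 10.9 in PGE1 and 79.7 and 80.8 in PGE2. The PGE1 libraries were the lowest, and PGE1 replicate 1 was the highest of them, as in 32 members. Against DMSO, Myc fell by 2.31 on the log2 scale after PGE1 (SE 0.24, limma adjusted p = 9.82e-05) and differed by 0.22 after PGE2 (SE 0.27, limma adjusted p = 0.704). In dKO it was higher by 0.29 (SE 0.04, limma adjusted p = 8.22e-04), a call lost in the fit of all 14 libraries (adjusted p = 0.289). Among 11 tested genes of the Myc network, Max, the partner of Myc, and Mlx were also lower after PGE1, while 5 were higher. Mxd1, a repressor that competes with Myc for Max, went from 8.07 ± 0.36 to 23.2 ± 1.48 FPKM (SD, n = 3; limma adjusted p = 1.71e-06), and Mxi1, Mnt, Mxd4 and Mlxip rose 1.62-fold, 1.42-fold, 1.60-fold and 1.27-fold. All 17 tested Myc target genes with roles outside the ribosome fell after PGE1, among them the spermidine synthase Srm (6.10-fold), Ccnd2 (4.19-fold) and Hspd1 (1.87-fold). In dKO 15 of those 17 were higher, Shmt2, Slc7a5 and Ran by 1.39-fold, 1.48-fold and 1.20-fold. The proliferation list had 6 of 16 genes lower after PGE1, led by Rrm2 (1.79-fold), Mcm2 (1.44-fold) and Mcm6 (1.35-fold), and 1, Birc5, higher. The 8 members with CACGTG near the start had a median log2 difference after PGE1 of -1.19, between -1.46 and -0.53, and the 26 without it one of -1.05, between -1.66 and 0.38, so the ranges overlapped.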

How the data were processed

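The data are RNA-seq of sorted LSCs from mice, in 14 libraries. The FPKM values were deposited by the authors as 1 file per library. The submitters' processing notes name CASAVA 1.8, TopHat, Cufflinks and the mouse build mm9. The sources used here do not state the annotation, strand handling or treatment of shared reads. FPKM steps gave whole reads for 100% of the 19057 genes above 0 (within 0.001 of a read), from which depth was read; 58.99% to 61.06% of reads lay in genes.

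Two-sided tests used limma 3.58.1 in R 4.3.3 (intensity trend) on log2(FPKM + 1), which understates changes of low genes, where the mean reached 1 FPKM, with Benjamini-Hochberg adjustment over all genes and a threshold of 0.05. The 6 untreated libraries, the 8 treated libraries, and the WT with the DMSO libraries were 3 separate fits. Folds are ratios of mean FPKM. Groups come from the titles. Other steps ran in Python 3.11.15 with pandas 2.3.3, numpy 2.4.6, matplotlib 3.10.9 and scipy 1.17.1. Scripts were tested on simulated data.

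The members, roles and lists were chosen with earlier results of these data known, so no test over a list was made. Full statistics were given for the 6 called members with the smallest p per comparison, any against their direction, and up to 3 called genes per list; further members were named after their values were seen. Promoters are from RefSeq on GRCm38.p6, a later build than that of the files; Fbl, Npm1, Rrp12, Bop1 and Rrs1 were not matched.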

Additional observations from a re-analysis of the deposited data

How the results depend on the processing

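The count of members lower after PGE1 was 37 or 38 under every alternative run (pseudocount, minimum level, scaling, trend, replicate block, 1 fit of all libraries, each library left out). The share of all genes lower ran from 17.1% to 29.9% in these runs. The members higher in dKO, 21 as reported, ran from 12 to 36 when 1 library was left out, beside 11.3% to 22.8% of all genes. They were 15 with no minimum level (9.96% of all genes) and 14 in 1 fit of all 14 libraries (10.6%). All genes called for PGE2 against DMSO, 626 as reported, were 1207 in that fit and 125 to 520 with a library left out (a lone library is then assumed to vary like the other groups); in that fit 1 member, Nop10, was higher (adjusted p = 0.0429). The replicate number as a block gave 269 such genes, took Npm1 out of the PGE1 against PGE2 calls (adjusted p = 0.0611) and left 21 members higher in dKO and 37 lower after PGE1. Whether the numbers pair the libraries is not labelled. Deviations of same-numbered libraries correlated at 0.035, 0.12 and 0.0086 (WT with dKO) and -0.16, -0.27 and 0.26 (DMSO with PGE1). Those of libraries with different numbers ran from -0.071 to 0.035 and from -0.39 to 0.43. With 3 libraries per group these values cannot decide whether animals or batches were shared. Promoters with CACGTG went from 23.5% to 2.94% before the start alone.

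Signs turned only for values that had not been called: Nop56 (-0.011) and Ppan (-0.023) in dKO under quantile normalization, and 3 genes when 1 library was left out. These ran from -0.021 to 0.039 for Nop14 and from -0.037 to 0.078 for Noc3l after PGE2, and from -0.033 to 0.064 for Polr1c in DMSO against WT. The share of dKO calls that were higher was 44.1%, 60.2% under quantile normalization. The cause of these shifts was not tested. With 2 PGE2 libraries and about 20 M reads each, small differences are not resolved.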
